A study of Mus musculus with 26 samples.

Results

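The arrays titled ES1 to ES12 are 12 of the 26 exon arrays of this series, and they were set against the other 14, titled ES13 to ES26. The 12 were picked by title from the measured values, because genes of the myeloid blood lineage were high in them and low in the rest. Each gene was given 1 value per array, the median over the brighter 50% of its probe sets, rounded up, on the log2 scale of the deposited values. A total of 18341 genes had at least 4 probe sets and were described. The values of the same comparison chose the groups, so all differences below are descriptions and carry no p-value.

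All 26 samples are mouse total RNA labelled ES EB and described as embryoid body cells. An embryoid body is a clump of embryonic stem cells left to differentiate. ES1 to ES12 are all labelled with the strain 129S2/SvPas, and so are ES13 and ES14, while ES15 to ES26 are labelled C57BL/6. The groups compared here therefore cross the strain label. The labels name no genotype, treatment, culture time or sort for any sample, and they do not say whether the arrays stem from separate cultures or animals. The design text says that no technical replicates were made, but not what the arrays of a group share, so the spread between them may still be smaller than that between independent cultures. No batch or date is given, and an unrecorded batch and the group cannot be told apart.

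Neutrophils and the other granulocytes descend from progenitors shared with monocytes. As a neutrophil precursor matures it fills its primary granules first, with myeloperoxidase and serine proteases, then its secondary granules, with lactoferrin and other antimicrobial proteins, and last its gelatinase granules and surface receptors. The transcription factors PU.1 (gene Spi1) and C/EBP family members drive this programme. Embryonic stem cells can be led to such cells in culture, but undirected embryoid bodies are better known for primitive red cells, macrophages, heart, endothelium and mesenchyme.

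The markers given for the 12 arrays were Ngp, Mmp8, Mpo and S100a8, and the 250 bases before the RefSeq start of each are shown because all 4 genes were high together in the same arrays. Coordinates and sequence are those of RefSeq on assembly GRCm38.p6, and all 4 genes lie on the plus strand. Ngp is at chr9:110419558-110419807, Mmp8 at chr9:7558179-7558428, Mpo at chr11:87793534-87793783 and S100a8 at chr3:90668821-90669070. Capitals mark the letters GAGGAAG, a form of the PU.1 motif, and TTNNGCA, a form of the C/EBP motif, on either strand. No PU.1 letters overlapped C/EBP letters in these windows.
Ngp: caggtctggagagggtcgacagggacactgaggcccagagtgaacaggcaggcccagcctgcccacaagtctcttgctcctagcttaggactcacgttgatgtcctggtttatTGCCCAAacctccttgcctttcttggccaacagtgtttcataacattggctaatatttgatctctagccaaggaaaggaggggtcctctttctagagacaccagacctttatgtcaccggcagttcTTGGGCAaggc
Mmp8: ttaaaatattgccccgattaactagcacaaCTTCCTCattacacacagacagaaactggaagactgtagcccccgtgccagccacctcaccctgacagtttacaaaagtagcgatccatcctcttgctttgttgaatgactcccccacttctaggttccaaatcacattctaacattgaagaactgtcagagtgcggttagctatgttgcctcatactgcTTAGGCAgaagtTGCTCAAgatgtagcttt
Mpo: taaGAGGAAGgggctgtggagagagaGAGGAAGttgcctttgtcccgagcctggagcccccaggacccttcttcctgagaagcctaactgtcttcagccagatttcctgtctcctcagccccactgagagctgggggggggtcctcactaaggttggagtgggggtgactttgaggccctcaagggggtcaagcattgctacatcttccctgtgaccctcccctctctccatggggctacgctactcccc
S100a8: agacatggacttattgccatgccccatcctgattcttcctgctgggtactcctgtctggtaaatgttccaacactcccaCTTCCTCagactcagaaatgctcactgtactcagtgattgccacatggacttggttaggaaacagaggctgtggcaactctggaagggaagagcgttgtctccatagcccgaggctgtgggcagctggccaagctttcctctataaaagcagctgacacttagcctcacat
The Ngp window held C/EBP letters at -137 to -131 and at -11 to -5, counted from the start. The Mmp8 window held C/EBP letters at -30 to -24 and -18 to -12 and PU.1 letters at -220 to -214. The Mpo window held PU.1 letters at -247 to -241 and at -224 to -218, and the S100a8 window at -171 to -165. The S100a8 window also held TATAAA, the TATA box letters, at -30 to -25, and MYB letters (AACNGTC) stood in the Mmp8 window at -157 to -151 and -69 to -63 and in the Mpo window at -165 to -159.

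Such matches are common. PU.1 letters stood in 10.4% of the 27025 RefSeq windows of this length, taken at 1 per gene, and C/EBP letters in 31.8%. Of the 1185 genes described below as higher in ES1 to ES12, 955 had a window, and 158 of those (16.5%) held PU.1 letters. Of the 792 windows of genes lower in ES1 to ES12, 75 (9.47%) did, and of all 14400 windows of described genes 10.5% did. C/EBP letters stood in 30.9% of the windows of higher genes, 21.8% of those of lower genes and 29.5% of those of described genes. For TGTGGTT, a form of the RUNX motif, these shares were 5.24%, 3.16% and 3.56%, for AACNGTC (MYB) 6.39%, 5.56% and 6.26%, for ATGCAAA (octamer) 4.71%, 2.78% and 3.42%, and for the TATA box letters 9.32%, 7.95% and 9.66%. A match is a description of letters and does not show a bound site.

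Arrays within ES1 to ES12 resembled each other more than they resembled the rest. Across the 18341 genes, Pearson's r between pairs of these 12 arrays ran from 0.950 to 0.992 over 66 pairs, with a median of 0.977. Over the 91 pairs within ES13 to ES26 it ran from 0.897 to 0.991, and over the 168 pairs between the groups from 0.787 to 0.871. These are correlations across genes of arrays normalized together, and genes are not independent replicates. Array medians over all probe sets lay between 5.32 and 5.51, no pair of arrays held identical values, and Actb, a cytoskeletal gene often used as a reference, differed by 0.12 ± 0.03 (SE).

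A gene was counted as separated where all 12 values of ES1 to ES12 lay on one side of all 14 values of ES13 to ES26 and the means differed by at least 1 log2 unit, which is 2-fold. By this count 1185 genes (6.46%) were higher in ES1 to ES12 and 1025 (5.59%) were lower, together 12.0% of those described. These shares are the background for every list below, and since this contrast chose the groups nothing is read from them. Means at least 1 unit apart, with no demand on overlap, were found for 1845 genes (10.1%) higher and 1817 (9.91%) lower. The median difference over all genes was 0.00. Of the separated genes, 194 higher and 89 lower had means at least 4 units apart.

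**Figure D1:**
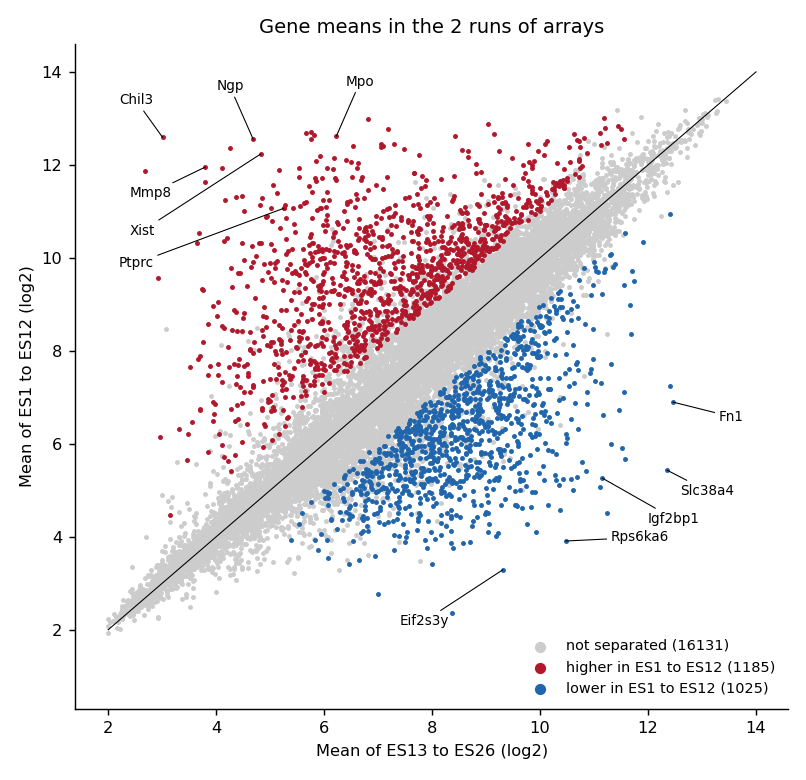
Each point is 1 of 18341 genes, placed by its mean log2 value over ES13 to ES26 (horizontal) and over ES1 to ES12 (vertical). The line marks equal means. Red points are the 1185 genes separated and higher in ES1 to ES12, blue points the 1025 separated and lower, grey points the remaining 16131. Chil3 and Mmp8 lie far above the line and Slc38a4 and Rps6ka6 far below it.

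The 4 markers lay far apart in the groups. Ngp, the neutrophilic granule protein, had lowest, median and highest values of 11.02, 12.73 and 13.50 in ES1 to ES12 and of 3.64, 4.72 and 5.34 in ES13 to ES26, a difference of 7.86 ± 0.25 (SE). Mmp8, neutrophil collagenase, stood at 9.94, 12.21 and 12.66 against 2.88, 3.71 and 5.00, a difference of 8.15 ± 0.27. The groups did not overlap for either gene, and the lowest arrays of the first group were ES5 for Ngp and ES4 for Mmp8.

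Mpo, the myeloperoxidase of primary granules, stood at 11.97, 12.61 and 13.31 in ES1 to ES12 against 4.83, 6.10 and 7.77, a difference of 6.39 ± 0.28. S100a8, a calcium-binding protein abundant in neutrophil cytoplasm, stood at 11.86, 12.51 and 12.70 against 6.00, 6.48 and 7.26, a difference of 5.88 ± 0.13. All ES1 to ES12 values were above all others here too, and among the rest Mpo was highest in ES17. At the boundary between the groups, ES12 and ES13 read 12.8 and 5.1 for Ngp, 12.4 and 3.9 for Mmp8, 12.5 and 6.0 for Mpo, and 12.4 and 6.5 for S100a8. These adjacent titles carry the same strain label. The markers that define myeloid cells were thus high in all 12 arrays, but they also chose the arrays. The sources used here do not say why ES1 to ES12 differ from ES13 and ES14, which carry the same tissue and strain labels, and whether titles and labels match the RNA was not tested.

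**Figure D2:**
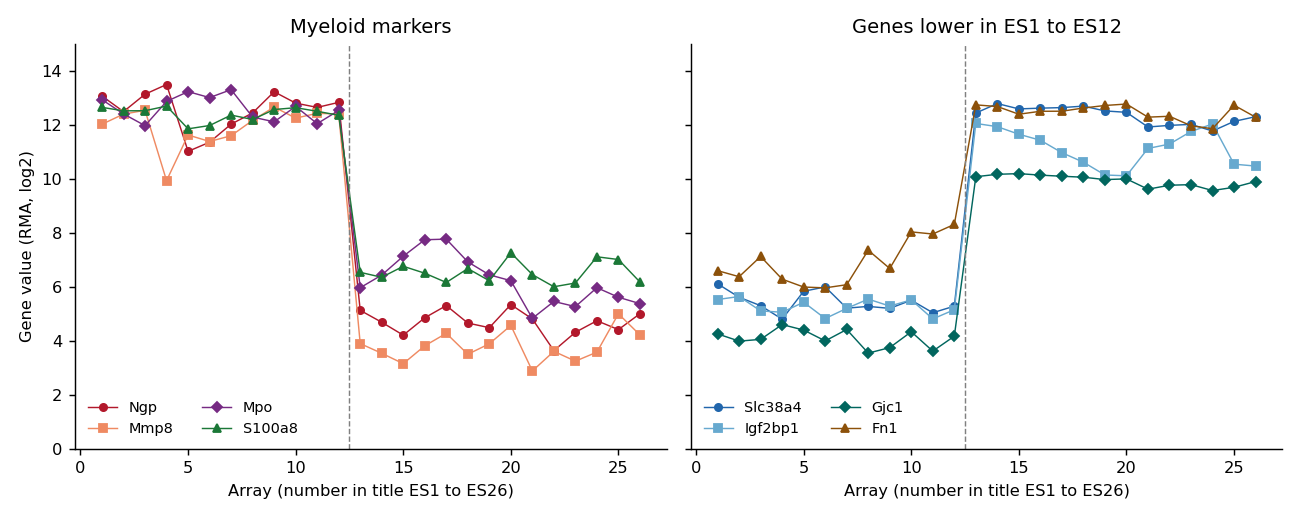
Log2 gene values for each array in title order, with the boundary between ES12 and ES13 dashed. Left, the 4 markers, at 9.94 or above in ES1 to ES12 and at 7.77 or below in ES13 to ES26; right, 4 genes in the opposite position, of which Fn1 reached 8.32 in ES1 to ES12 against at least 11.86 in the others.

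Primary granule genes were high in ES1 to ES12. Of 13 measured members of that list, 11 were separated and higher, none was lower, and the median difference was 5.81. Ms4a3, a membrane protein of granulocyte and monocyte progenitors, stood at 11.94, 12.38 and 13.07 against 3.39, 4.17 and 5.15 (8.10 ± 0.18). Ctsg, the serine protease cathepsin G, stood at 11.97, 12.78 and 13.06 against 5.28, 5.81 and 6.92 (6.83 ± 0.15). Both were tight within ES1 to ES12, with SDs of 0.38 and 0.35 (n = 12).

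Other members followed the same order. Lyz2, lysozyme, differed by 6.79 ± 0.55 with its highest outside value, 9.94, in ES20. Prtn3 (proteinase 3) differed by 5.32 ± 0.13 and Prss57, another serine protease of neutrophils, by 3.06 ± 0.12. Proteins that handle these proteases were also high: Ctsc, cathepsin C, which activates them, differed by 4.15 ± 0.48, Serpinb1a, which inhibits them, by 6.27 ± 0.24, and Cst7 (cystatin F) by 6.43 ± 0.20. Serpinb1a has close paralogs that share sequence. Nkg7, a granule membrane protein of cytotoxic cells and granulocytes, differed by 4.70 ± 0.21 and Plac8 by 5.81 ± 0.30. Neutrophil elastase under its current symbol, Elane, was not measured; a gene that the annotation calls Ela2, named here after its values were seen, stood at 12.13 to 13.09 against 5.20 to 6.35.

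The 2 primary granule members that were not separated behaved differently from each other. Bpi, an endotoxin-binding protein of human neutrophil granules, was low throughout, at 4.86 to 5.65 against 4.99 to 5.52. Cd63, a membrane protein of granules and lysosomes in many cells, was high throughout, at 11.57 to 12.30 against 10.73 to 12.05.

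Secondary granule genes were high as well, with 15 of 17 measured members separated, none lower and a median difference of 4.79. Chil3, a chitinase-like protein of mouse myeloid cells, had the largest difference of all named genes: 11.45, 12.82 and 13.09 in ES1 to ES12 against 2.51, 2.97 and 3.64 (9.59 ± 0.18). Its neighbour in sequence Chil4 differed by 9.20 ± 0.18, but the near-identical transcripts may share probes. Lcn2, lipocalin 2, which binds bacterial iron carriers, stood at 11.65, 12.87 and 13.06 against 5.07, 5.64 and 6.37 (7.03 ± 0.16). For each of these genes the gap between the nearest arrays of the groups was more than 5 log2 units.

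Antimicrobial and surface members varied more among the 12 arrays. Ltf (lactoferrin) stood at 9.26, 11.46 and 13.06 against 4.88, 5.81 and 6.57 (5.64 ± 0.38), and Camp (cathelicidin) at 9.21, 11.33 and 12.74 against 5.31, 6.58 and 7.16 (4.79 ± 0.36). Their lowest arrays were in the stretch ES5 to ES8, although all 12 remained above the others. Cd177, a neutrophil surface protein, differed by 5.70 ± 0.22, Hp (haptoglobin) by 5.46 ± 0.21, Pglyrp1, which binds bacterial peptidoglycan, by 4.60 ± 0.14, and Itgb2l, a neutrophil integrin chain, by 4.07 ± 0.33. Adam8, a surface metalloprotease, differed by 4.52 ± 0.30, Ceacam10 by 4.44 ± 0.42, Fcnb (ficolin B) by 3.02 ± 0.28 and Lrg1 by 1.87 ± 0.11.

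Gelatinase, the enzyme that names the last granule type, did not follow the others. Mmp9 (gelatinase B) stood at 5.48, 7.47 and 10.39 in ES1 to ES12 against 6.23, 7.74 and 9.89, a difference of -0.17 ± 0.52, so the groups overlapped completely. It was lowest in ES5 and highest in ES9, and in ES13 to ES26 it was highest in ES20. Mmp25, a membrane-bound metalloprotease of neutrophils, also overlapped, at 6.30 to 8.84 against 6.21 to 7.82.

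Genes of late neutrophils were separated in 11 of 15 measured members, with none lower and a median difference of 4.83. Hdc, which makes histamine, stood at 7.84, 10.97 and 12.44 against 3.89, 4.43 and 5.34 (6.50 ± 0.41). Trem1, a receptor that amplifies inflammatory signals, differed by 6.24 ± 0.22, Itgam, the integrin chain CD11b, by 5.77 ± 0.35, and Trem3 by 5.52 ± 0.17. Cxcr2, the chemokine receptor that draws neutrophils out of the marrow, stood at 7.76, 9.62 and 11.35 against 3.35, 4.98 and 6.24 (4.73 ± 0.39). Csf3r, the receptor for granulocyte colony-stimulating factor, was even across the 12 arrays, at 9.32, 9.96 and 10.36 against 5.43, 5.74 and 7.29 (3.82 ± 0.22).

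Further late members were Clec4d, a C-type lectin receptor (5.30 ± 0.31), Il1r2, the interleukin 1 decoy receptor (4.83 ± 0.30), and Fpr2, a receptor for formylated bacterial peptides (2.98 ± 0.31). Overlap was found for Retnlg, a resistin-like protein of mature neutrophils, at 6.16 to 9.04 against 6.16 to 7.03. Il1b, the cytokine interleukin 1 beta, overlapped at 6.75 to 10.53 against 4.27 to 9.00, and so did Mxd1 at 9.96 to 11.01 against 9.22 to 9.97. Ptgs2, cyclooxygenase 2, was at 6.57 to 9.84 against 7.02 to 11.67.

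Several late neutrophil genes carried fewer than 4 probe sets and so were outside the rule. S100a9, the partner of S100a8, stood at 11.79 to 12.89 against 3.73 to 5.28. Stfa2l1, a stefin of mouse neutrophils, stood at 10.08 to 12.55 against 1.97 to 4.02. Both were separated, as were Ly6g, the surface antigen that marks mouse neutrophils (6.23 to 11.12 against 2.82 to 4.17), and Fpr1 (5.33 to 11.75 against 2.96 to 4.07).

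Genes listed as general to leukocytes, not all of which are shared by every leukocyte type, were separated in 29 of 32 measured members. None was lower, and the median difference was 4.38. Ptprc, the leukocyte common antigen CD45, stood at 10.62, 11.12 and 11.42 against 3.95, 4.39 and 7.48 (5.81 ± 0.38). Cd53, a tetraspanin, differed by 6.17 ± 0.51, Cd52 by 5.96 ± 0.57, Fcer1g, the signalling chain of Fc receptors, by 5.88 ± 0.51, Itgb2, the common chain of leukocyte integrins, by 5.32 ± 0.41, and Rac2, a GTPase of blood cells, by 5.15 ± 0.33. The 3 not separated were Itgb7, Fyb and Plek, adhesion and platelet or T cell signalling genes, with differences of 0.7, 2.6 and 3.9. Part of this signal was also present in ES15 to ES20: the mean over the list was 10.71 to 11.38 in ES1 to ES12, 6.62 to 8.53 in ES15 to ES20 and 5.64 to 6.22 in the remaining arrays. In bulk RNA, fewer cells of a type and less RNA per cell cannot be told apart.

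The phagocyte NADPH oxidase, which makes superoxide in the phagosome, was high in all 5 of its measured parts. The list also holds catalytic chains of other tissues, and 7 of its 8 genes were measured. Of these 7, 5 were higher, 1 was lower and 1 overlapped. Cybb, the catalytic chain, stood at 10.04, 11.16 and 12.73 against 3.65, 4.14 and 7.98 (6.28 ± 0.48), and its membrane partner Cyba at 11.48, 11.89 and 12.11 against 7.95, 8.64 and 10.17 (2.93 ± 0.21). The cytosolic subunits Ncf1 and Ncf4 differed by 5.22 ± 0.31 and 4.36 ± 0.22, and Rac2, given above, also belongs here. Catalytic chains of other tissues did not share this: Nox4 was lower and separated, at 3.32 to 4.02 against 5.13 to 6.41 (-2.17 ± 0.13), and Nox1 overlapped, at 4.47 to 5.22 against 4.18 to 4.89.

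Innate receptors and adaptors were separated in 21 of 29 measured members, none lower, with a median difference of 3.74. C-type lectin receptors led: Clec5a stood at 11.23, 11.66 and 12.02 against 2.96, 3.69 and 4.70 (7.85 ± 0.17). Clec12a, an inhibitory receptor, differed by 7.08 ± 0.27, Clec4n (dectin 2) by 6.73 ± 0.55 and Clec4e (mincle), a receptor for mycobacterial glycolipid, by 5.76 ± 0.26. Clec5a was among the 5 genes with the widest gap between nearest arrays in the higher direction, with Chil3, Chil4, Ms4a3 and Xist.

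Chemokine genes were separated and higher in 8 of 17 measured members and lower in 2. Ccr1, a receptor for inflammatory chemokines, differed by 6.69 ± 0.36, and the ligands Ccl6, Ccl9 and Ccl3 by 5.60 ± 0.52, 5.40 ± 0.62 and 5.33 ± 0.84. Ccl3 nearly met the other group, since ES18 reached 10.79 and the lowest of ES1 to ES12 was 10.94. The 2 lower genes were Cxcl12, the stromal ligand of Cxcr4, at 5.17 to 6.33 against 6.61 to 10.07, and its second receptor Ackr3, with a difference of -2.0; both were named after their values were seen.

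Lipid mediator genes were separated and higher in 6 of 13. Of the 7 not separated, 2 were higher and 2 were lower by at least 1 unit. Alox5, the 5-lipoxygenase that starts leukotriene synthesis, stood at 9.46, 11.26 and 11.93 against 4.37, 5.69 and 7.58 (5.14 ± 0.33), and its activating protein Alox5ap differed by 4.85 ± 0.38. Lta4h, which makes leukotriene B4, a neutrophil attractant, was even within both groups, at 11.14 to 11.97 against 8.57 to 9.36 (2.52 ± 0.09). Tbxas1, thromboxane synthase, differed by 4.26 ± 0.38.

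Myeloid transcription factors were separated and higher in 13 of 25 measured members, none lower, with a median difference of 1.64. Spi1, which encodes PU.1, stood at 10.30, 10.85 and 11.53 against 6.22, 7.30 and 8.21 (3.67 ± 0.18). Among C/EBP genes, Cebpe, needed for secondary granules, stood at 10.09, 10.80 and 11.23 against 7.43, 8.05 and 8.51 (2.74 ± 0.13), and Cebpb, Cebpd and Cebpa differed by 2.51 ± 0.15, 2.41 ± 0.19 and 1.49 ± 0.10. All 4 were separated. Gfi1, a repressor that favours neutrophils over monocytes, differed by 2.87 ± 0.13. The capitals in the promoters above mark letters of the PU.1 and C/EBP motifs, but the arrays say nothing of binding there.

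Other separated factors were Tfec, with the largest difference of the list (6.05 ± 0.31), Myb, a factor of immature blood cells (3.89 ± 0.25), Ikzf1 (3.87 ± 0.39), Fli1 (3.75 ± 0.56), Lyl1 (2.94 ± 0.30), Irf4 (2.00 ± 0.28) and Etv6 (1.42 ± 0.09). The 12 that overlapped include Irf8, which favours monocytes, at 7.54 to 8.71 against 5.94 to 8.06, and Irf5 at 8.09 to 9.52 against 6.04 to 8.51. The Runx genes overlapped, with Runx1 at 9.75 to 10.98 against 6.91 to 9.86, Runx2 at 8.64 to 9.49 against 5.89 to 9.75 and Runx3 at 8.75 to 9.87 against 7.10 to 9.34. Nfe2, a factor of platelets and red cells, overlapped by 1 array, ES15, with a difference of 3.10 ± 0.51. Gata1, the red cell factor, stood at 6.43 to 8.17 against 5.14 to 10.33, and Gata2 at 7.70 to 10.27 against 7.05 to 8.71. Klf4, Klf2, Id2 and Zeb2 also overlapped, with differences between -0.55 and 0.74.

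Cytokine receptor genes were separated and higher in 12 of 22 measured members, none lower. Csf2rb, the signalling chain shared by the receptors for GM-CSF, interleukin 3 and interleukin 5, stood at 11.57, 12.02 and 12.50 against 4.84, 6.14 and 8.44 (5.56 ± 0.36), and its near copy Csf2rb2 differed by 4.52 ± 0.20. Il2rg, the common gamma chain, differed by 4.74 ± 0.38 and Tnfrsf1b, a TNF receptor, by 3.82 ± 0.18. Receptors of early progenitors, named after their values were seen, were not apart: Kit stood at 7.56, 8.62 and 9.81 against 5.29, 9.39 and 10.22, and Flt3 at 5.05, 5.54 and 5.98 against 5.05, 5.46 and 5.74. In the stem and progenitor list Cd48 (4.55 ± 0.20) and Myb were separated and higher and Sox4 lower (-1.97 ± 0.16), and the other 18 of 21 overlapped, Cd34 among them at 8.13 to 11.57 against 5.93 to 10.14.

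Mast cell and basophil genes were also high in ES1 to ES12, in 10 of 20 measured members, with none lower. Cpa3, the carboxypeptidase of mast cell and basophil granules, stood at 9.98, 12.06 and 13.00 against 3.39, 4.24 and 4.83 (7.83 ± 0.32). Mcemp1 differed by 6.86 ± 0.19, Hdc by the 6.50 given above and Mcpt8, a basophil protease, by 5.95 ± 0.27. Fcer1a and Ms4a2, the chains of the IgE receptor, named after their values were seen, were separated too (3.00 ± 0.20 and 3.42 ± 0.23). The tissue mast cell proteases Mcpt1, Mcpt2, Tpsb2 and Tpsab1 overlapped, with differences between 0.1 and 0.5, and so did Cma1, mast cell chymase, at 5.34 to 9.75 against 4.87 to 5.84 (1.89 ± 0.44). Cyp11a1, a steroid-forming enzyme, was in none of the lists and stood at 8.25 to 11.63 against 3.18 to 4.88 (6.22 ± 0.32); it too was named after its values were seen.

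Eosinophil genes were uneven among the 12 arrays. Epx, eosinophil peroxidase, stood at 6.01, 9.70 and 12.16 against 5.46, 5.63 and 5.94 (3.41 ± 0.61), so it was separated, but by 0.07. Its values were 12.2 in ES9, 11.0 in ES10 and 10.9 in ES12, and 6.0, 6.7, 7.6 and 6.3 in ES5 to ES8. Prg2, major basic protein, named after its values were seen, was 12.8 in ES9 and 6.4 in ES5, and overlapped the other group. Gzmb, granzyme B, which is not particular to eosinophils, was named in the same way. It was 10.1 in ES10 and 4.8 in ES6. The mean over the 9 measured eosinophil genes ran from 5.92 to 8.83 within ES1 to ES12 and from 5.22 to 6.01 within ES13 to ES26, and Epx and Cebpe of these 9 were separated. Ear2, an eosinophil ribonuclease with fewer than 4 probe sets, was separated as well, at 3.69 to 10.11 against 2.06 to 3.32. The eosinophil mean was 5.92, 6.32, 6.41 and 6.21 in ES5 to ES8, but ES2 was close to these, at 6.59. The secondary granule mean also had its lowest value in ES5, 9.46 against 11.53 in ES4, and read 10.50 in both ES2 and ES8. The arrays therefore did not fall into 2 clear sets by these means.

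Macrophage genes were high in ES1 to ES12 and, to a lesser degree, in ES17 to ES20. Of 24 measured members 8 were separated and higher, none lower, and the median difference was 2.24. Adgre1, the F4/80 antigen, stood at 9.64, 11.31 and 12.16 against 4.22, 4.74 and 9.23 (5.17 ± 0.58), with its 4 highest outside values in ES17 to ES20. Mpeg1, a pore-forming protein of macrophages, differed by 5.60 ± 0.62, Ctss, cathepsin S, by 4.64 ± 0.40, and Msr1, a scavenger receptor, by 4.05 ± 0.41. For each of the 4 the highest array of the other group was ES20.

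Csf1r, the receptor for macrophage colony-stimulating factor, overlapped, at 8.68 to 10.57 against 5.65 to 9.02, and so did Cd68, a lysosomal protein, at 9.77 to 12.09 against 7.62 to 9.97. C1qa, a complement gene of tissue macrophages, was low in both, at 6.42 to 7.32 against 6.58 to 7.26; these 3 genes were named after their values were seen. Without ES15 to ES20 the number of separated macrophage genes was 15 of 24. The mean over the list was 7.53 to 8.80 in ES1 to ES12, 5.55 to 7.64 in ES15 to ES20 and 5.36 to 5.66 in the other arrays, so the groups met at this measure. Of 18 dendritic cell genes, Cd74, Cd86, H2-Aa, Itgax and Irf4 were separated and higher, with differences of 3.43, 2.60, 2.34, 2.33 and 2.00. None was separated and lower. The other 13 were not separated, of which 3 were higher and 1 was lower by at least 1 unit. The median difference of this list was 0.20, and the groups met at its mean as well.

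**Figure D3:**
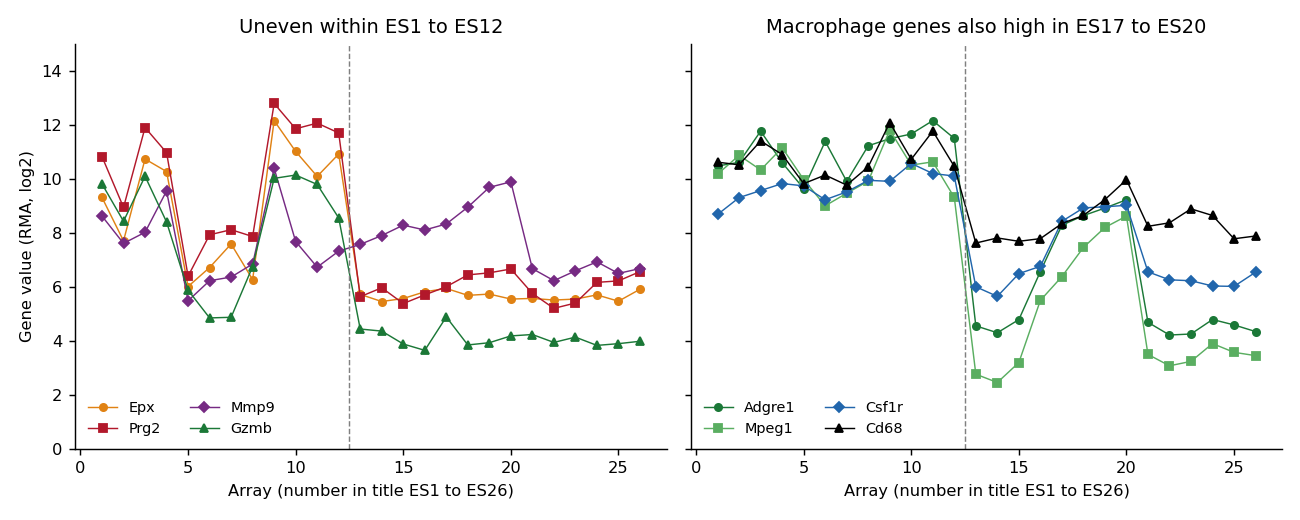
Log2 gene values for each array in title order, with the boundary between ES12 and ES13 dashed. Left, Epx, Prg2 and Gzmb are high in part of ES1 to ES12, and Mmp9 spans 5.48 to 10.39 in that group. Right, 4 macrophage genes are highest in ES1 to ES12 and reach between 8.62 and 9.97 in ES20.

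Red cell genes did not set the groups apart. None of 17 measured definitive erythroid genes was separated, and the median difference was -1.46, or -0.27 without ES15 to ES20. Means were lower by at least 1 unit for 11 of them and higher for 1, with overlap. Klf1, the red cell Krüppel-like factor, stood at 4.92 to 5.94 against 5.18 to 9.83, and Alas2, which starts haem synthesis in red cells, at 4.68 to 5.79 against 5.02 to 11.69, both named after their values were seen. The highest values were in ES15 to ES20, where the list mean was 8.08 to 9.83. It was 6.55 to 7.60 in ES13 and ES14, 6.03 to 6.50 in ES1 to ES12 and 5.62 to 6.24 in ES21 to ES26. An adult beta globin gene, Hbb-b1, was the exception: it stood at 7.96, 10.50 and 12.55 in ES1 to ES12 and between 9.5 and 10.9 in ES15 to ES20, and at 6.54 or below in the other arrays. Its difference of 3.43 ± 0.89 depended on the probe sets used, and in the dimmer ones it was -0.60. The embryonic globins were not high in ES1 to ES12, with Hbb-bh1 at 2.90 to 4.04 there against 2.82 to 12.67. Globin paralogs share sequence, and their probe sets may share signal.

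No member of the megakaryocyte list (16 measured) was separated, and Nfe2, given above, had its largest difference. Without ES15 to ES20, 6 members were separated, all higher in ES1 to ES12, and in the T and NK cell list 4 were higher in place of 1. Lymphoid lists were near level by their median differences, 0.09 for B cells and 0.10 for T and NK cells. Some members were higher by at least 1 unit but overlapped, 2 in the B cell list and 3 in the other. In the latter 1 member was lower in the same way. In the B cell list 1 of 15 was separated, Ebf1, which was lower (-1.87 ± 0.18), while Cd79a, a B cell receptor chain, stood at 5.03 to 6.34 against 5.11 to 6.13. Cd79b, another such chain named after its values were seen, was higher in ES1 to ES12. With 1 array left out, its difference ran from 1.14 to 1.36. In the T and NK cell list Thy1 was higher (4.35 ± 0.42) and Tcf7 lower (-2.13 ± 0.22), and Cd3e, a T cell receptor chain, stood at 5.42 to 6.50 against 5.85 to 7.05. The means over these lists were 5.39 to 5.75 and 5.81 to 6.51 in ES1 to ES12, against 5.13 to 5.49 and 5.60 to 5.99 in the rest. Among 19 endothelial genes only Erg, a factor that blood cells also use, was separated (2.69 ± 0.40, higher). Tek, Kdr and Cdh5, markers of vessel lining named after their values were seen, had differences of -2.69, -2.91 and -1.79 and overlapped. Pecam1, which both vessel lining and leukocytes express, was named in the same way and overlapped with a difference of 2.26 ± 0.54.

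**Figure D4:**
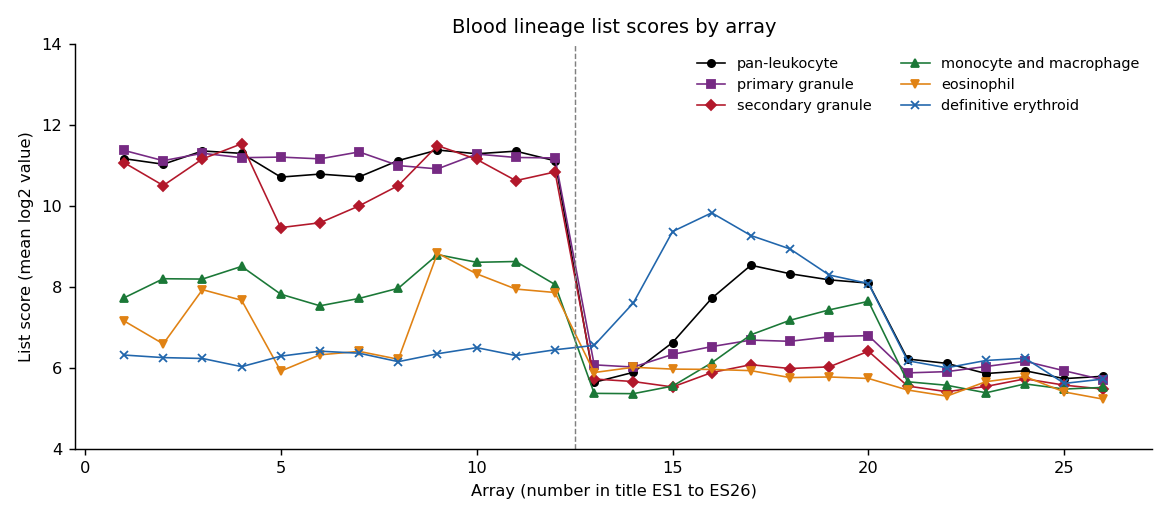
Mean log2 value over the measured members of 6 blood lists, for each array in title order, with the boundary between ES12 and ES13 dashed. The primary granule mean stays between 10.91 and 11.37 across ES1 to ES12 while the secondary granule mean runs from 9.46 to 11.53, the eosinophil mean from 5.92 to 8.83, and the erythroid mean is highest in ES16.

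Sex-linked genes also set the 12 arrays apart. Xist, the RNA that coats an inactive X chromosome, stood at 12.00, 12.29 and 12.43 in ES1 to ES12 against 4.36, 4.62 and 5.98 (7.41 ± 0.13). Eif2s3y, a Y-linked translation factor gene, stood at 2.77, 3.24 and 4.03 against 7.87, 9.61 and 10.04 (-6.02 ± 0.21). Neither gene had a value between the groups. Uty, a Y-linked gene with fewer than 4 probe sets, was separated and lower as well, at 2.92 to 3.97 against 4.86 to 6.45.

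The other measured sex-linked genes overlapped. Kdm5d, also Y-linked, was low in both groups, at 4.37 to 5.15 against 4.26 to 5.43. Tsix, antisense to Xist and overlapping it, was at 4.74 to 6.56 against 5.29 to 9.14. The X-linked genes Kdm6a, Kdm5c, Eif2s3x and Ddx3x had differences of 0.90 ± 0.11, 0.18 ± 0.07, 0.23 ± 0.09 and -0.04 ± 0.06. The labels give no sex, and the part of sex in the other differences was not tested.

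Among genes lower in ES1 to ES12, imprinted genes took several of the largest differences, with 12 of 28 measured members separated, none higher and a median of -2.27. Slc38a4, an amino acid transporter expressed from the paternal allele, stood at 4.80, 5.29 and 6.11 in ES1 to ES12 against 11.77, 12.45 and 12.79, and its difference of -6.92 ± 0.14 was the largest in this direction among separated genes. Rian, a maternally expressed noncoding RNA, stood at 3.95, 4.40 and 5.19 against 8.46, 11.55 and 12.36 (-6.72 ± 0.35). Peg3 and Mest, both paternally expressed, differed by -6.03 ± 0.40 and -5.90 ± 0.41. Genes of both parental alleles were thus among those separated. For Slc38a4, Rian, Peg3 and Mest none of the 12 arrays reached the other group. Of the 28 measured members 16 were not separated, and 7 of these were lower by at least 1 unit but overlapped.

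The rest of the 10 largest were of other kinds. Rps6ka6, a ribosomal S6 kinase, stood at 3.44, 3.71 and 4.93 against 9.36, 10.39 and 11.63 (-6.56 ± 0.25). Gjc1, the gap junction protein connexin 45, was even in both groups, at 3.55, 4.11 and 4.60 against 9.57, 9.99 and 10.20 (-5.84 ± 0.11). Igf2bp1, an RNA-binding protein of embryonic tissue, differed by -5.89 ± 0.20, Bex1 by -5.81 ± 0.32 and the transcript D7Ertd715e by -6.00 ± 0.42, and Eif2s3y has been given above. Fermt2, an integrin activator of adherent cells, was among the 5 widest gaps in this direction, at 4.60 to 5.76 against 10.09 to 10.79.

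Pluripotency genes were low in ES1 to ES12, with 13 of 26 measured members separated, none higher and a median of -2.64. Dppa5a stood at 4.38, 4.61 and 5.21 against 7.34, 10.00 and 12.66 (-5.47 ± 0.46), Tdgf1, the Nodal coreceptor Cripto, at 4.04, 4.75 and 5.15 against 7.45, 8.99 and 12.34 (-5.18 ± 0.51). Utf1 differed by -4.54 ± 0.51 and Zfp42 (Rex1) by -4.01 ± 0.62. The core factors, named after their values were seen, were separated too: Pou5f1 (Oct4) stood at 4.58 to 6.12 against 6.61 to 11.70, Sox2 at 5.34 to 6.30 against 8.18 to 11.44 and Nanog at 5.82 to 6.52 against 7.20 to 11.49. The high end lay in ES21 to ES24, where the mean over the list was 9.98 to 10.61, against 6.65 to 8.07 in the other arrays of that group and 5.52 to 5.87 in ES1 to ES12. In the primed epiblast list 2 of 14 were separated and lower, Sall2 (-1.90 ± 0.11) and Fgf5 (-1.45 ± 0.16), and 5 were without ES25 and ES26. In the primitive streak list 2 of 22 were separated, Bmp4 (-4.23 ± 0.23) and Snai1 (-2.81 ± 0.26), all lower.

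Oncofetal RNA-binding genes, active in embryo and early tissue, were lower in 6 of 8. Besides Igf2bp1, Lin28b differed by -3.59 ± 0.23, Igf2bp2 by -3.38 ± 0.10 and Igf2bp3 by -3.25 ± 0.27. Chromatin genes mostly overlapped, with Tet1, which oxidises methylated cytosine (-3.19 ± 0.39), and Phc1, a Polycomb subunit (-2.73 ± 0.22), lower among 20. In the list of Hox genes and cofactors 2 of 37 were lower, the cofactors Meis2 (-3.94 ± 0.29) and Meis3 (-1.45 ± 0.17). That share, 5.41%, is near the 5.59% of all described genes, so nothing is read from it.

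Matrix and adhesion genes were low in ES1 to ES12. Of 29 fibroblast and mesenchyme genes 18 were lower, and of 19 basement membrane genes 13, with median differences of -2.40 and -2.18. Fn1, fibronectin, stood at 5.96, 6.64 and 8.32 against 11.86, 12.51 and 12.78 (-5.56 ± 0.26), and Nid1, nidogen 1 of basement membranes, at 4.86, 5.31 and 5.73 against 9.32, 10.88 and 11.76 (-5.41 ± 0.21). Prrx1, a mesenchymal homeobox factor, differed by -4.79 ± 0.38, Sparc by -4.74 ± 0.18, the laminin chain Lamb1 by -4.61 ± 0.17, Cald1, an actin regulator, by -4.47 ± 0.16 and the proteoglycan Hspg2 by -3.65 ± 0.13. Thy1 was the only mesenchyme list member that was separated and higher. Vim, vimentin, a filament protein of both mesenchyme and leukocytes, was level, at 12.66 to 13.21 against 12.39 to 13.47.

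The epithelial junction list held 8 lower genes among 21, and 13 without ES25 and ES26. Among the 8 were Krt19 (-5.05 ± 0.21), Krt18 (-3.83 ± 0.38) and Dsc2 (-3.44 ± 0.50). Cdh2, N-cadherin, which is not particular to epithelia, was another (-4.37 ± 0.23). Cdh1, E-cadherin, overlapped, at 8.14 to 10.36 against 7.60 to 11.86. Connexins and protocadherins were lower in 5 of 17, led after Gjc1 by Fat1 (-5.44 ± 0.15) and Pcdh18 (-4.85 ± 0.30), and Celsr1 was higher by 1.1. Integrin chains were found on both sides. The leukocyte chains Itgam, Itgb2, Itgal (4.65 ± 0.14) and Itgax (2.33 ± 0.33) were higher among 9, and the matrix chains Itga3 (-2.85 ± 0.39) and Itga8 (-2.15 ± 0.29) were lower among 14.

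Signalling genes of adherent cells were low with them. In the Hippo list, 9 of 13 were lower: the coactivator Yap1 stood at 7.20, 7.38 and 7.82 against 9.87, 10.11 and 10.59 (-2.73 ± 0.07), its DNA-binding partners Tead2 and Tead1 differed by -3.72 ± 0.12 and -3.50 ± 0.07, and the target Ccn1 by -3.56 ± 0.27. Of 21 targets and receptors of Wnt, BMP and FGF signalling 7 were lower, led by Msx2 (-3.90 ± 0.39), Fgfr1 (-3.29 ± 0.27), Fgfr2 (-3.26 ± 0.20) and Id3 (-2.83 ± 0.20). None of either list was higher.

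Genes of other embryonic tissues were also among those lower. Of 25 neural genes, 6 were lower, with the largest differences for Dpysl3 (-3.98 ± 0.33) and Sox11 (-3.58 ± 0.14). In the cardiac list Tbx20 (-4.65 ± 0.39), Isl1 (-2.91 ± 0.23) and Gata4 (-1.81 ± 0.18) were lower among 24. In the trophoblast list 4 of 16 were lower, Peg10 (-5.17 ± 0.41), Krt18, Plac1 (-3.41 ± 0.44) and Tfap2c (-2.41 ± 0.29). In the extraembryonic endoderm list 11 of 26 were lower, led by H19 (-5.62 ± 0.61), Nid1, Sparc and Lamb1, all of which stand in other lists too, and Srgn, a proteoglycan that blood cell granules also hold, was higher (4.20 ± 0.13).

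**Figure D5:**
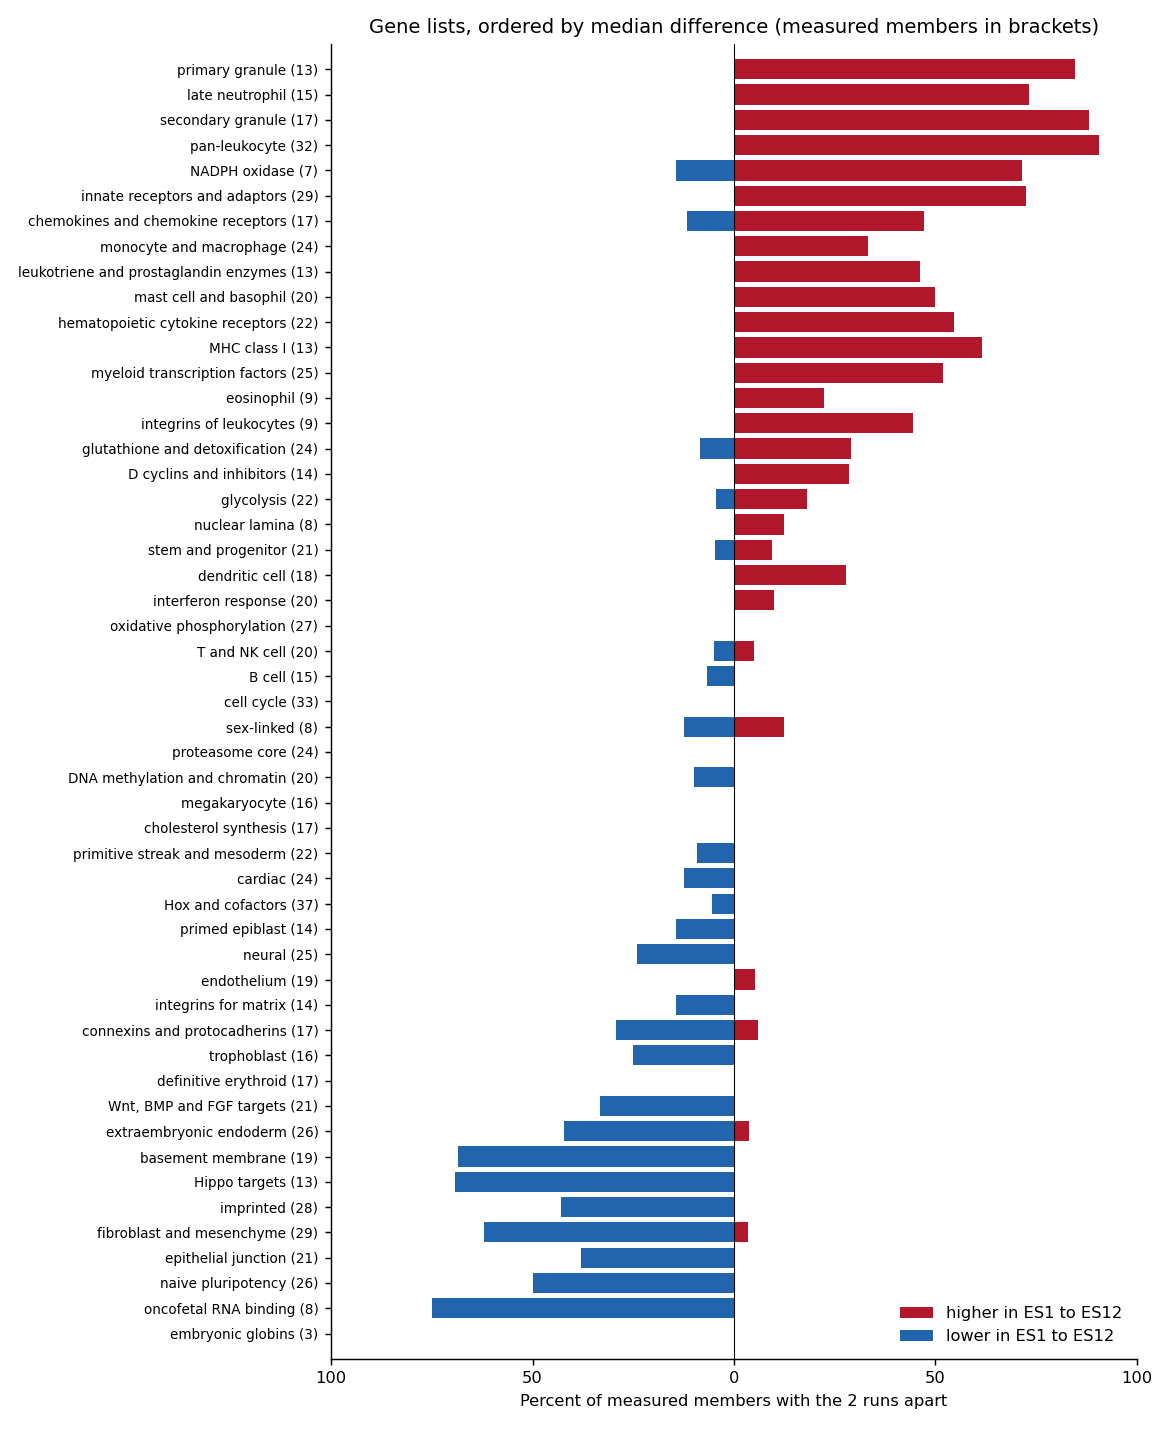
Share of the measured members of each of 51 gene lists that were separated and higher (red, right) or lower (blue, left) in ES1 to ES12, ordered by the median difference of the list. The background over all genes is 6.46% higher and 5.59% lower. Granule, leukocyte and innate receptor lists lie at the top, and oncofetal, pluripotency, matrix and imprinted lists near the bottom.

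Antigen presentation genes were higher in 8 of 13 measured members of the MHC class I list, none lower. H2-D1, a class I heavy chain, stood at 12.06, 12.37 and 12.51 against 7.70, 8.50 and 9.05 (3.77 ± 0.12). The immunoproteasome subunits Psmb8 and Psmb9 differed by 3.51 ± 0.22 and 3.41 ± 0.16 and the peptide transporter Tap2 by 3.12 ± 0.16. Heavy chain genes differ between strains and resemble each other, and ES1 to ES12 carry 1 strain label while 12 of the other 14 arrays carry the other; the part of strain was not tested. Interferon response genes did not share this, with Ifih1 (2.27 ± 0.17) and Irf7 (2.05 ± 0.19) the only ones separated of 20.

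Cell division and basic metabolism were close to level. None of 33 cell cycle genes, 27 oxidative phosphorylation genes, 24 proteasome genes or 17 cholesterol genes was separated, and the median differences were 0.08, 0.10, -0.01 and -0.39; the first 3 take the other sign under at least 1 other scaling or summary of the values. The largest differences in these lists were those of E2f2 (1.99 ± 0.29), Ndufs8 (0.77 ± 0.15), Psmc5 (-0.75 ± 0.14) and Hmgcs1 (-1.51 ± 0.19). Mki67, a proliferation marker named after its values were seen, was at 11.09 to 11.66 against 10.17 to 11.11. Of 14 measured members of the D cyclin and inhibitor list 4 were separated, all higher. They were Rb1 (2.26 ± 0.24), its relatives Rbl2 (1.87 ± 0.21) and Rbl1 (1.22 ± 0.10), and the inhibitor Cdkn1a (2.33 ± 0.32). No D cyclin was among them. Of the 10 not separated, 2 were higher and 1 was lower by at least 1 unit. Ccnd1 and Ccnd2, D cyclins named after their values were seen, went opposite ways. With 1 array left out, their differences ran from -3.15 to -2.82 and from 1.26 to 1.39. Another inhibitor on the list, Cdkn2d, had fewer than 4 probe sets and was separated and higher too, by 1.56.

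Enzymes of sugar and glutathione metabolism were separated in part. In glycolysis 4 of 22 were higher, Hk3, a hexokinase of myeloid cells (4.66 ± 0.17), Hk1 (1.87 ± 0.21), Pfkp (1.85 ± 0.21) and Gpi1 (1.3), and Ldhb was lower (-3.07 ± 0.21). In the glutathione list 7 of 24 were higher, led by Mgst2 (5.81 ± 0.13), which can also make leukotriene C4, Mgst1 (4.28 ± 0.37) and Gstm1 (3.50 ± 0.17), and 2 were lower, Gsta4 (-3.82 ± 0.27) and Cyp1b1. Of 8 nuclear lamina genes only Sun2 was separated (3.05 ± 0.17).

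The spread among arrays was uneven between the groups. The median SD of a gene was 0.285 in ES1 to ES12 and 0.341 in ES13 to ES26, and 64.5% of genes had the larger SD in the latter. Among separated higher genes, ES26 was the highest of the other group for 240 (20.3%), ES17 for 198 and ES20 for 153, and ES6 was the lowest of ES1 to ES12 for 312 (26.3%) and ES5 for 228. Among separated lower genes the lowest of the other group was ES24 for 259 (25.3%), and the highest of ES1 to ES12 was ES6 for 164. Within ES1 to ES12, ES6 and ES5 thus set the margin most often in either direction. For lower genes this was less marked, with shares of 16.0% for ES6, 12.8% for ES5 and 10.2% for ES9. In 835 of the 1025 lower genes (81.5%) the mean of ES1 to ES12 was below the median gene of the arrays, 7.33.

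Some probe sets did not enter the gene values. In the dimmer probe sets of each gene, which do not enter its value, 1178 of the 1185 higher genes (99.4%) and 1021 of the 1025 lower genes (99.6%) had a difference of the same sign. By the same count applied to those dimmer probe sets, 848 (71.6%) and 722 (70.4%) were separated. These probe sets were read from the same arrays, and only genes already separated were counted, so this speaks of the measurement and not of other samples. Among 3416 genes with 1 to 3 probe sets, 58 were higher and 44 lower (2.99%), and among 319612 probe sets with no gene symbol 5289 were higher and 3531 lower (2.76%). Both shares are below the 12.0% of described genes. Of genes on the lists with fewer than 4 probe sets, the imprinted gene Ndn and the laminin chain Lamb2 were separated and lower (-3.58 and -3.12), and the difference of Gapdh was -0.03.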

How the data were processed

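Total RNA from 26 samples was measured on the Affymetrix Mouse Exon 1.0 ST array. Per the labels, the authors made the deposited values by RMA over extended exon probe sets, using Expression Console. They are taken as log2 from RMA convention and their range, 0.831 to 15.6. Per the labels' protocols, RNA was amplified before labelling, and the sources used here do not give the software's version or the annotation's build. The RMA method brings arrays to a common distribution, which can hide shifts shared by all genes, and arrays give no read depth, so the number of arrays limits the precision.

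No value was missing among 631748 probe sets. Of these, 306069 (48.4%) had exactly 1 symbol in the platform annotation, 6067 had several and 319612 had none. Of 21757 symbols 17747 were current in RefSeq on GRCm38.p6, 3725 were updated through a synonym and 285 kept as given. A gene value was the median of the brighter 50%, rounded up, of its probe sets, ordered by mean level across the 26 arrays, for genes with at least 4 probe sets (median 13). Differences are ES1 to ES12 minus ES13 to ES26, and the SE is that of a difference of 2 means with separate SDs (n = 12 and n = 14). No test was run, since the groups came from these values. Of 977 genes on 52 lists, the markers included, 897 were measured. The members and lists were chosen with earlier results of these data known. Named genes were the 10 largest differences in each direction (at least 0.75 of probe sets alike, no provisional name), the 5 widest gaps in each direction, up to 4 separated members per list or otherwise the member with the largest difference, all members of the granule, late neutrophil, oxidase and transcription factor lists, the markers and the sex-linked list; any other gene named was chosen after its values were seen, or completes a count. Alternative settings concerned how probe sets were summarised and filtered, how arrays were scaled, how separation was defined, which arrays were left out, and the strain grouping. Python 3.11.15, numpy 2.4.6 and pandas 2.3.3 were used, and the steps were tested on simulated data.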

Additional observations from a re-analysis of the deposited data

How the results depend on the processing

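The 1185 higher and 1025 lower genes depended most on the grouping. Grouped by strain label, which moves ES13 and ES14 into the first group, 17 genes were higher and 89 lower, of which 13 and 62 were among those reported. With a difference of means alone the counts were 1845 and 1817. Without the dimmer 50% of genes 905 were higher and 545 lower, out of 9171 genes described. Leaving out 1 array at a time gave 1180 to 1286 higher and 1022 to 1088 lower. Centring each array on its median gene moved the median of all genes to 0.10 and gave 1392 higher and 937 lower, and leaving out ES15 to ES20 gave 1507 and 1198. The remaining settings gave 986 to 1340 higher and 898 to 1218 lower. Among named differences and list medians of at least 1 unit, only Hbb-b1 changed sign under any alternative, from 3.43 to -0.60 in the dimmer probe sets; the cause was not tested. Leaving out 1 array moved the count of a list by over 1.5 times only where that count was 0 or 1, by 1 gene each, on leaving out ES2, ES4, ES5, ES6, ES7, ES9, ES14, ES15, ES16, ES17, ES20, ES24 or ES25; without ES16, for example, 1 cell cycle gene was higher, without ES4 or ES20 1 cholesterol gene was lower, and without ES5, ES7 or ES15 1 megakaryocyte gene was higher. No test was run, and no paired analysis was possible because the groups of 12 and 14 arrays share no number that pairs them. Array signal near background limits low values, so a difference that starts from a low value may be compressed.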
